A study of Mus musculus with 39 samples.

Results

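The nuclear genes for the subunits of the mitochondrial respiratory chain and ATP synthase were examined in mouse lung after mainstream tobacco smoke. Members were every array probe whose annotated symbol begins with Ndufa, Ndufb, Ndufab, Ndufc, Ndufs or Ndufv and a digit, Uqcr, Cox4 to Cox8 or Atp5, or is Sdha, Sdhb, Sdhc or Sdhd. The rule found 84 probes of 82 genes among 20868 gene probes: 37 for complex I, 4 for complex II, 8 for complex III, 17 for complex IV and 18 for complex V. All 84 were among the 17560 probes kept after a filter on dim spots. Atp5pb and Ndufs6 each had a second probe. Cox8c was not analysed here.

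The respiratory chain passes electrons from NADH (complex I) and succinate (complex II) through ubiquinone, complex III and cytochrome c to oxygen (complex IV), and the proton gradient so made drives ATP synthase (complex V). The catalytic core of complexes I, III and IV is partly encoded in mitochondrial DNA, and the genes described here are the nuclear part. A few complex IV subunits exist as pairs, with one isoform made in most tissues and another in heart and skeletal muscle, and in mouse a sleeve of cardiac muscle surrounds the pulmonary veins inside the lung.

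Total RNA of part of the lung of 39 male C57BL/6 × CBA F1 mice was labelled with Cy5 and hybridised against a purchased universal mouse reference RNA in Cy3, with 1 array per mouse and the same dye orientation on every array. The groups were 6 week smoke (n = 5) with 6 week sham (n = 5), 12 week smoke (n = 4) with 12 week sham (n = 5), 6 week smoke and break (n = 5) with 6 week break sham (n = 5), and 12 week smoke and break (n = 5) with 12 week break sham (n = 5). Smoke exposed mice breathed nose-only the smoke of 2 cigarettes per day, on 5 days per week, for 6 or 12 weeks, and sham mice were held in the restrainers only. The break lasted 6 weeks. The labels give an age of 8 to 10 weeks and 3 h after exposure for all 8 groups, the break groups included. The paper gives that age for the mice that were exposed. Age at sampling then differed with the length of exposure and break, and cannot be told apart from these lengths. Each sample title carries its own number, and the names m1 to m5 were assigned here within each group. The p-values of the group comparisons rest on the spread between these mice. With 1 array per mouse, variation between arrays is part of that spread. Lung cells of every kind were lysed together, so fewer cells of a type and less RNA per cell cannot be told apart.

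All values are log2 lung/reference ratios, and a difference is the fitted difference of such ratios between groups, after removal of the differences between 5 exposure runs inferred from the labels. A ratio of 1 probe shows how the lung stood against the reference pool, with the dye bias of that probe included, and is not an abundance. A member was called changed when limma's moderated test gave a Benjamini-Hochberg adjusted p under 0.05 over all 17560 probes.

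The median Cy5 signal per array was 268 to 1532, or 2.21 to 8.94 times the background, and 48.4% to 94.6% of the spots exceeded the negative control threshold. The markers of lung epithelium Sftpc, Sftpb and Sftpd (surfactant proteins), Scgb1a1 and Cyp2f2 (club cells) were above the threshold on all 39 arrays, with mean ratios of 3.51, 2.69, 7.00, 2.67 and 4.59. Cyp1a1, induced through the aryl hydrocarbon receptor, had ratios of 5.07 to 8.06 on the 9 smoke arrays, against 0.45 to 2.81 on 29 of the arrays without current smoke. The array labelled 6 week sham m2 had 6.46, within the range of the smoke arrays. It was kept under its label, and without it no member was called either in the 6 week smoke, 12 week smoke or pooled comparison.

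Brightness limited many members. Of the 84 probes, 78 were above the threshold on all 39 arrays, and the 6 others were Ndufb5 (38 arrays), Ndufa3 (31), Ndufa4l2 (31), Cox4i2 (30), the second Atp5pb probe (29) and Cox7b2 (25). At the other end, 57 members reached the scanner limit in at least 1 dye on some array. Where both dyes are at the limit the ratio holds no information, and every such member of an array then gets nearly the same value. This was so for 228 of 3276 member values (6.96%), and most of them lay on the 8 arrays of run 1, with 14 to 33 members each, against at most 4 on any other array. Cox6a1 was at the limit in both dyes on 30 arrays, Cox4i1 on 23, Cox8a on 14 and Cox6c on 11. Cox6a1 was at the limit in Cy5 on every array of 6 week smoke, 12 week smoke, 6 week break sham and 12 week smoke and break, so that its ratios and differences are not given.

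The promoters of muscle isoforms of complex IV and of their widely expressed partners are shown first, since these isoforms varied most between mice. Cox6a2 is named only. The windows run from 250 bases before to 50 bases after the RefSeq gene start (GRCm38.p6). Capitals mark an NRF1 core (GCGCANGCG), an ETS core (CCGGAAG) or a TATA box core (TATAAA), each searched on both strands, and overlapping matches share capitals. Cox8b lies on chr7:140900397-140900696 (minus strand), Cox8a on chr19:7217567-7217866 (minus), Cox7a1 on chr7:30183921-30184220 (plus), Cox7a2 on chr9:79759804-79760103 (minus) and Cox6a1 on chr5:115348909-115349208 (minus).
Cox8b: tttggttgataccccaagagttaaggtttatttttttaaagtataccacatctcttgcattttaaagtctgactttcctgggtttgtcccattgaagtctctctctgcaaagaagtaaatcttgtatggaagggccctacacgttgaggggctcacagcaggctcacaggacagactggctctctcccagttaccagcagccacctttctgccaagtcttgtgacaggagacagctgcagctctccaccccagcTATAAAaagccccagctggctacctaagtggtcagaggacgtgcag
Cox8a: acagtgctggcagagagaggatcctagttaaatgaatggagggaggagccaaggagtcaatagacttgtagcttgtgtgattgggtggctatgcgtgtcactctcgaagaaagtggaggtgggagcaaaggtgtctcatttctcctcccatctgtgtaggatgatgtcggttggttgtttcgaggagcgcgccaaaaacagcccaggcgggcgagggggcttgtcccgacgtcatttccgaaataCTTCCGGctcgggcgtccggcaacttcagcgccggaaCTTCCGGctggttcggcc
Cox7a1: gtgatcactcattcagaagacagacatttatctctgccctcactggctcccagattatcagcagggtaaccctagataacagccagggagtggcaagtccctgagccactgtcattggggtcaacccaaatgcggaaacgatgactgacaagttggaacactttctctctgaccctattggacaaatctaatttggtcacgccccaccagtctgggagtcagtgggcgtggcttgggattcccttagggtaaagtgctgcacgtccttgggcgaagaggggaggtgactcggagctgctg
Cox7a2: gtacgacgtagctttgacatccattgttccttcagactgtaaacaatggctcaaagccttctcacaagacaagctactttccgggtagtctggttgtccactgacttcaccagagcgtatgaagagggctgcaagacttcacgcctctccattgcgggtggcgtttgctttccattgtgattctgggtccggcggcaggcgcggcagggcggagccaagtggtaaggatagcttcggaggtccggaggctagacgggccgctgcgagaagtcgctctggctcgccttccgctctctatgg
Cox6a1: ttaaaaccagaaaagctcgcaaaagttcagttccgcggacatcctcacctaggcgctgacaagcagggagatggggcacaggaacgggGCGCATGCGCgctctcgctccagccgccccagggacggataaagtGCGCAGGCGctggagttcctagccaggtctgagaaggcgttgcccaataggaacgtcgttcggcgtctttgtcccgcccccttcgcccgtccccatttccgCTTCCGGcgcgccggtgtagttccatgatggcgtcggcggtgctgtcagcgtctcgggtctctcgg
The Cox8b window held 1 TATA box core, 4 bases after the start, and 2 copies of CAGCTG, an E-box. The Cox8a window held 2 ETS cores and the Cox6a1 window held 3 NRF1 core matches over both strands, some of them overlapping, with 1 ETS core. Neither Cox7a1 nor Cox7a2 had a match to any of these motifs.

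Over the family, 68 of the 82 genes matched a RefSeq entry, with 73 promoters. The NRF1 core, named for nuclear respiratory factor 1, was present in 21 of the 73 (28.8%), against 6.25% of all 32851 mouse promoters of the same length. By complex it stood in 9 of 34 promoters for complex I (26.5%), 2 of 3 for complex II, 2 of 5 for complex III, 1 of 13 for complex IV (7.69%) and 7 of 18 for complex V (38.9%). The ETS core, of the kind bound by GABP, was present in 16 promoters (21.9%), against 8.86% of all. The TATA box core was found in 9 member promoters (12.3%), against 13.6% of all. CAGCTG was found in 6 (8.22%), against 16.3%, and a MEF2 site in 0, against 0.56%. A match of letters is a description of the window and not a site of binding.

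Against the reference RNA, most subunit genes had lower signals in lung. Ratios were below 0 for 57 of 84 members (67.9%), with a median of -0.30, against 45.6% and a median of 0.04 over all kept probes. By complex the median was -0.29 for I, -0.57 for II, -0.14 for III, -0.06 for IV and -0.48 for V. The order of the complexes did not hold under every setting. The complex IV median was -0.49 with saturated spots set to missing and -0.26 with median centring, and the complex V median was -0.90 with marked spots at weight 0, where 37 members were left.

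**Figure D1:**
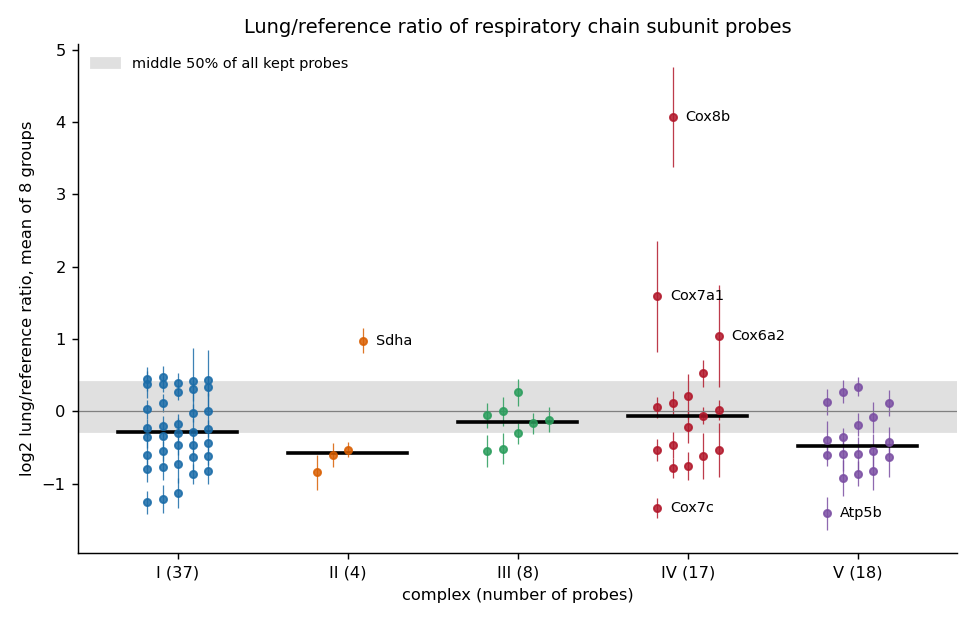
Log2 lung/reference ratio (vertical axis, mean of the 8 group means) of each member probe by complex (horizontal axis), with the SD between mice within group and run as error bars, the complex median as a black bar and the middle 50% of all kept probes in grey. The complex medians lie between -0.57 (II) and -0.06 (IV), Cox8b stands alone at 4.07, and with saturated spots set to missing the complex IV median is -0.49.

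In complex I the highest ratios were those of Ndufb7 (0.48) and Ndufb10 (0.45), accessory subunits of the membrane arm, and the lowest those of Ndufa12 (-1.26) and Ndufa10 (-1.21). The core subunits lay between: Ndufs3 had -0.18, Ndufs1 -0.21, Ndufs7 -0.35, Ndufv1 -0.55, Ndufs8 -0.62 and Ndufv2 -0.87. In complex II the flavoprotein Sdha stood at 0.98 and the other 3 subunits below 0, with the membrane anchors Sdhc and Sdhd at -0.53 and -0.61 and the iron-sulphur protein Sdhb at -0.84.

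In complex III, Uqcrh (0.26) and Uqcr11 (-0.00) were highest, and the Rieske protein Uqcrfs1 (-0.52) and Uqcrq (-0.55) lowest, with the core proteins Uqcrc1 and Uqcrc2 at -0.30 and -0.12. Complex IV had both extremes of its kind: the muscle isoforms Cox8b, Cox7a1 and Cox6a2 were at 4.07, 1.59 and 1.04, and Cox6b1 and Cox7c at -0.78 and -1.33. The widely expressed partners Cox8a and Cox7a2 were at -0.21 and -0.47, and Cox6a1 is not given because it was saturated on most arrays. Cox6b2, best known from testis, had 0.52, and Cox7a2l, a supercomplex factor, had 0.12. In complex V, Atp5l (0.34) and Atp5j (0.27) were highest. The catalytic beta subunit Atp5b (-1.41) and Atp5k (-0.92) were lowest, while the alpha subunit Atp5a1 was at -0.18 and the gamma subunit Atp5c1 at -0.59. The 3 genes for the same c-ring protein, Atp5g1, Atp5g2 and Atp5g3, had -0.82, -0.61 and -0.08.

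The SD within group and run had a median of 0.18 over members, against 0.25 over all kept probes, which include dim ones, and 0.169 over 1212 other probes of mean log2 intensity over 13. The median was 0.166 over the 57 members that reached the scanner limit on some array, where the limit narrows the ratio, and 0.192 over the other 27. Widest were Cox7a1 (0.77), Cox6a2 (0.70) and Cox8b (0.69), then the dim probes Ndufa4l2 (0.45), Ndufa3 (0.41) and Cox7b2 (0.37).

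**Figure D2:**
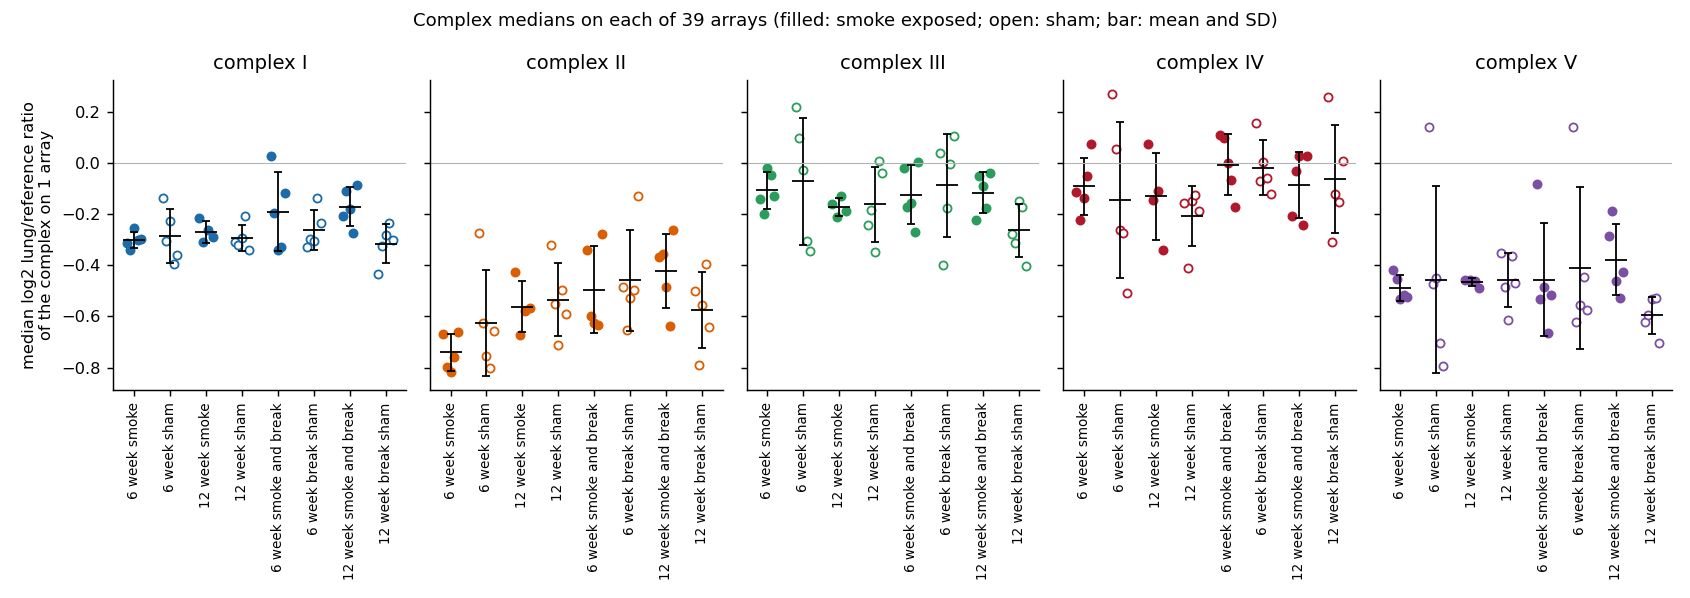
Median log2 lung/reference ratio of a complex on each of the 39 arrays (vertical axis) by group (horizontal axis), filled for smoke exposed and open for sham mice, with the group mean and SD as bars. The smoke and sham arrays of each pair overlap in most panels, and the single complex V points near 0.14 are 6 week sham m1 and 6 week break sham m1.

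The first question was whether subunit genes changed under continued smoke. After 6 weeks 0 of 84 members were called by limma, against 0.0626% of all probes, and 3 members had an unadjusted p under 0.05, against 8.41% of all probes. Without 6 week sham m1 it was 11 of 84, against 7.05%. After 12 weeks 0 members were called, against 0.433% of all probes, and 6 had an unadjusted p under 0.05, against 9.37%. With both durations pooled, 0 members were called, against 1.22%, and 9 had an unadjusted p under 0.05 (10.7%), against 12.2%.

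The complex medians stayed near 0. In 6 week smoke against 6 week sham they were -0.01 for I, -0.08 for II, -0.01 for III, -0.01 for IV and -0.01 for V, with all probes at 0.01. In 12 week smoke against 12 week sham they were 0.01, 0.00, 0.04, 0.05 and 0.02 in the same order, with all probes again at 0.01. The 95% intervals of 78 members at 6 weeks, 77 at 12 weeks and 79 when pooled lay within 1.5-fold in either direction. Larger changes were outside the interval for those members. However, 57 members reached the scanner limit on some array, where the limit narrows the ratio. For these a narrow interval cannot show that a larger change was absent.

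**Figure D3:**
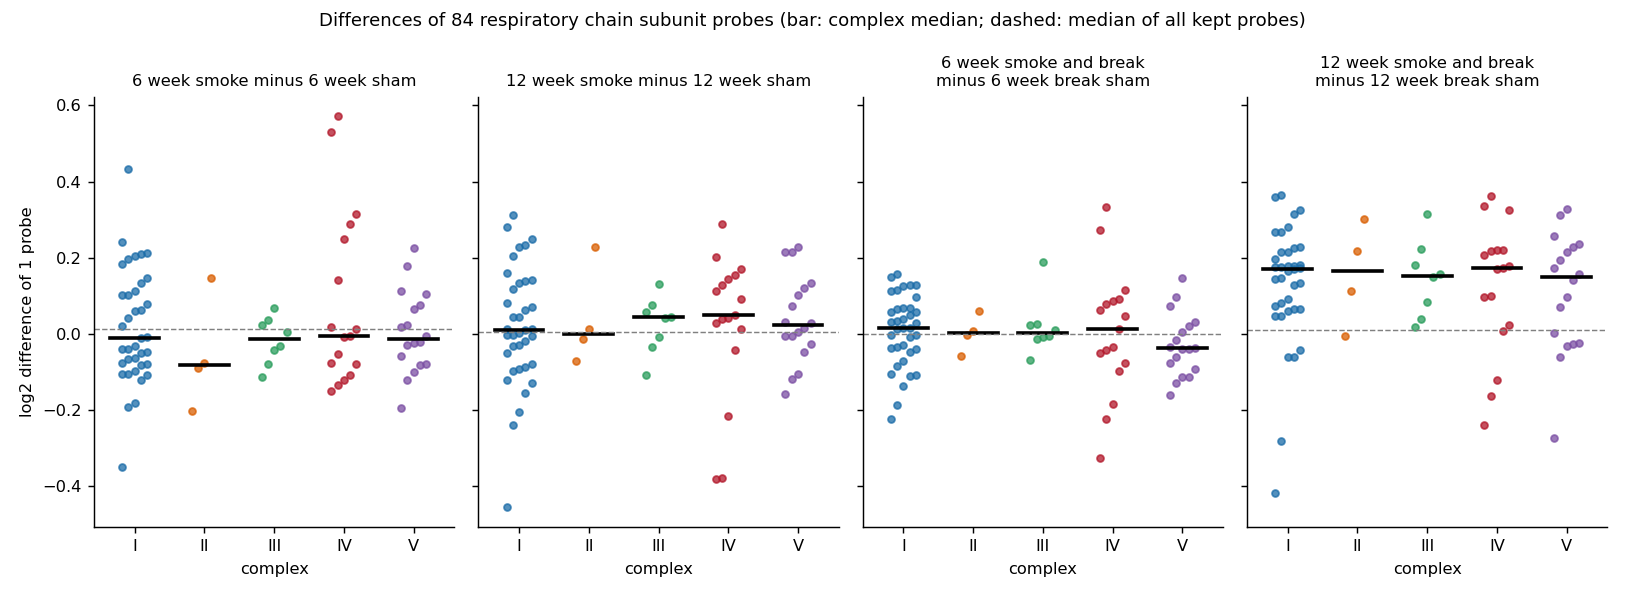
Fitted log2 differences (vertical axis) of the 84 probes by complex (horizontal axis) in 4 comparisons of smoke exposed minus sham mice, with black bars for complex medians and a dashed line for the median of all kept probes. The bars lie between -0.08 and 0.05 in the first 3 panels and between 0.15 and 0.17 in the panel for 12 week smoke and break.

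Among the core subunits, the nearest to a call was Ndufv2, which carries an iron-sulphur cluster next to the flavin site of complex I. Its ratios were -0.83, -0.72, -0.83, -0.92 and -0.85 in 6 week smoke, against -0.87, -0.91, -0.99, -1.37 and -1.15 in 6 week sham. In 12 week smoke they were -0.37, -0.78, -0.72 and -0.92, against -0.86, -0.97, -0.88, -1.06 and -1.02 in 12 week sham. The groups overlapped at both durations, by the lowest smoke mice. The pooled difference was 0.23 (SE 0.07, 95% interval 0.08 to 0.37, limma adjusted p = 0.108). It passed the threshold with scale normalization between arrays (0.26, adjusted p = 0.0279) and among the probes above the threshold on all arrays (0.23, adjusted p = 0.0446).

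Ndufa7, an accessory subunit, had a pooled difference of 0.23 (SE 0.09, adjusted p = 0.243) and the highest 12 week difference of complex I, 0.31. The lowest complex I difference was that of the dim probe Ndufa3, -0.40 pooled (95% interval -0.78 to -0.02), and the highest at 6 weeks that of Ndufa4l2, 0.43 (interval -0.13 to 1.00), another dim probe. Ndufs1, Ndufs3, Ndufs7, Ndufs8 and Ndufv1 had pooled differences of -0.06, -0.01, 0.12, -0.02 and 0.02, and Ndufa4, which is now counted with complex IV, had 0.11.

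In complex II, Sdhb was highest with pooled 0.19 and Sdha lowest with -0.11, while Sdhc and Sdhd had -0.08 and -0.03. Complex III had the narrowest range, from -0.05 (Uqcrc1) to 0.05 (Uqcrb) pooled, with Uqcrfs1 at 0.05 and Uqcrc2 at 0.01. At single durations its extremes were Uqcrh (-0.11) and Uqcrb (0.07) at 6 weeks, and Uqcrc1 (-0.11) and Uqcr10 (0.13) at 12 weeks.

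In complex IV, Cox7a2 had -0.18 (interval -0.36 to -0.01, adjusted p = 0.369) and the dim hypoxia-linked isoform Cox4i2 had the lowest 12 week value, -0.38. Cox5a, Cox5b, Cox6b1, Cox6b2, Cox7a2l and Cox8a had pooled differences of -0.02, 0.02, 0.15, 0.14, 0.00 and 0.09. In complex V, Atp5b had the highest difference, 0.23 at both durations and pooled (interval 0.01 to 0.44, adjusted p = 0.366). The lowest were Atp5md at 6 weeks (-0.20) and the second Atp5pb probe at 12 weeks (-0.16) and pooled (-0.13). Atp5a1, Atp5c1, Atp5g1, Atp5g2 and Atp5g3 had 0.05, 0.15, 0.06, -0.10 and 0.07.

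Within-run values spread on both sides of 0. Within run 1 the median member difference of 6 week smoke minus 6 week sham was -0.38, in run 2 -0.06, in run 3 0.22 and in run 5 0.06. In 12 week smoke the 4 runs with both groups gave 0.09, 0.14, 0.02 and -0.02. Run 1 of the 6 week comparison sets 6 week smoke m1 against 6 week sham m1, on which 25 and 31 members were saturated in both dyes. Without 6 week sham m1 the member median was 0.05 at 6 weeks and 0.07 pooled, with 0 members called in either.

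The second question was whether subunit genes differed 6 weeks after the last exposure. In 6 week smoke and break against 6 week break sham, 0 members were called, against 0% of all probes, and 1 had an unadjusted p under 0.05, against 4.32%. That member was Cox6b2 (-0.33, adjusted p = 0.999). The complex medians were 0.02, 0.00, 0.00, 0.01 and -0.04 for I to V, and 42 of 84 members were above 0. With median centring 16 of 84 were above 0 and the member median was -0.13, against -0.05 over all probes.

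In 12 week smoke and break against 12 week break sham, 0 members were called as well, against 0% of all probes, but the members lay to one side. Of the 84, 70 were above 0 (83.3%, against 52.7% of all probes), the member median was 0.17 against 0.01, and the complex medians were 0.17, 0.16, 0.15, 0.17 and 0.15. An unadjusted p under 0.05 was reached by 17 members (20.2%), all of them higher, against 6.43% of all probes in either direction (3.64% higher and 2.79% lower). With both break durations pooled, 0 members were called, against 0%, 64 were above 0 and 15 had an unadjusted p under 0.05, against 6.41%. Of those 15, 14 were higher and 1 lower, against 3.46% and 2.95% of all probes.

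The strongest of these were 2 accessory complex I subunits of the membrane arm. Ndufc2 had ratios of 0.31, 0.77, 0.72, 0.55 and 0.42 in 12 week smoke and break, against 0.11, -0.01, 0.44, 0.29 and 0.12 in 12 week break sham. The groups overlapped, since the highest sham mouse exceeded 2 of the smoke exposed mice. The difference was 0.36 (SE 0.09, 95% interval 0.18 to 0.55, unadjusted p = 0.000442, adjusted p = 0.489). Ndufa1 had ratios of 0.27, 0.75, 0.72, 0.40 and 0.49, against -0.05, 0.23, 0.30, 0.27 and 0.26 in 12 week break sham, with overlap only between the lowest smoke exposed mouse and the sham mice. Its difference was 0.32 (SE 0.08, adjusted p = 0.489). Among core subunits, Atp5c1 had 0.33, Uqcrfs1 0.32, Atp5a1 0.31, Ndufv2 0.22 and Ndufs8 0.21, each with an unadjusted p under 0.05. The others did not reach that p: Sdhb had 0.30, Sdhd 0.22, Uqcrc2 0.22, Ndufs3 0.18 and Sdha 0.11. Ndufs1 had 0.09, Ndufv1 0.08, Uqcrc1 0.08, Ndufs7 0.07, Sdhc -0.00 and Atp5b -0.03, also without that p. The complex IV subunits Cox5a, Cox5b and Cox4i1, which are not core subunits, had 0.18, 0.10 and -0.16 and did not reach it either. Cox4i1 spots were at the limit in both dyes on 23 arrays.

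Muscle and fat marker lists also varied among these mice, and their part in this shift was not tested. On 12 week smoke and break m2 and m5 the mean ratio of the 7 of 8 listed skeletal muscle markers that were kept was 3.38 and 2.81, while no other of the 37 arrays exceeded 0.41. Myh2, a fast myosin heavy chain, had 5.98 and 5.39 there, against at most 2.17 elsewhere, and Mylpf, a fast muscle light chain, had 2.73 and 2.81, against at most -0.44. Over all 7 markers, 6 were above every other array on both m2 and m5, and Myh1 on m2 only. The skeletal list mean spanned -0.24 to 3.38 in the smoke and break mice, against -0.07 to 0.37 in their shams. The cardiac list, 16 markers of the pulmonary vein muscle, had means of 2.84 on m2 and 2.33 on m5. On the other mice of the group it spanned 1.499 to 1.68, and in their shams 1.54 to 2.15. The m2 value was the highest of all 39 arrays. The fat list, with 5 kept markers, had 2.61 on m2 and 2.03 on m5. There the other mice spanned 1.089 to 2.15 and the shams 1.305 to 2.59, so m5 lay within both.

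Mice m2 and m5 belong to runs 4 and 5. There the within-run member medians were largest: 0.32 in run 4, with 78 of 84 members above 0, and 0.23 in run 5, with 71. In runs 1, 2 and 3 they were 0.15, 0.02 and 0.01, with 49, 44 and 44 members above 0. Without m2 and m5 the member median of the whole comparison was 0.07, and 57 members were above 0 (67.9%). Then 8 of 84 had an unadjusted p under 0.05, against 6.06% of all probes, and the complex IV median was -0.01. Without m2 alone the member median was 0.11, with 9 of 84 under that p, against 6.03% of all probes. Without m5 alone the median was 0.13, with 16 of 84, against 6.4%.

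Smoke was also compared between durations, with and without the break, and among shams. The shams compared with each other also differed in age at sampling. For the 12 week smoke difference against the 6 week smoke difference, 0 members were called, against 0% of all probes, and 2 had an unadjusted p under 0.05, against 4.86%. The pooled smoke difference was set against the pooled break difference, which comes from other mice. There 0 members were called, against 0.125% of all probes, and 9 had an unadjusted p under 0.05, against 9.58%. The nearest was Ndufa1 (-0.31, SE 0.08, adjusted p = 0.137). Break shams against shams without a break gave 0 called members, against 0.911%, and 4 with an unadjusted p under 0.05, against 12.9%. Without 6 week sham m1, 2 were called, against 179 of all 17560 probes, and 14 of 84 had an unadjusted p under 0.05, against 13.3%.

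Of these, Cox4i1 had 0.21 (SE 0.06, adjusted p = 0.0977), Cox6b2 0.28 (adjusted p = 0.12) and Ndufa7 0.27 (adjusted p = 0.135). Ndufa7 was called with scale normalization (0.34, adjusted p = 0.0415), with array weights (0.29, adjusted p = 0.0481) and without 6 week sham m1 (0.33, adjusted p = 0.0217). Cox4i1 was called among probes above the threshold on all arrays (adjusted p = 0.0408), with array weights (0.25, adjusted p = 0.0295) and without 6 week sham m1 (0.24, adjusted p = 0.0401), and its spots were at the limit in both dyes on 23 arrays. In 12 week sham against 6 week sham 0 members were called, against 0%, and 3 had an unadjusted p under 0.05, against 6.86%: Cox4i1 (-0.24), Ndufs6 (0.26) and Cox6a2 (0.99). Members above 0 were 54 of 84 there (64.3%, against 48.6% of all probes), with a median of 0.05. With saturated spots missing, 66 of 79 were above 0 (83.5%), with a median of 0.10, against -0.004 over all probes. Without 6 week sham m1, 66 of 84 were above 0 (78.6%), with a median of 0.10, against -0.01.

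The muscle isoforms of complex IV had the widest spread between mice of all members. Cox8b, whose product replaces that of Cox8a in heart and skeletal muscle of the mouse, had ratios of 3.33, 4.76, 4.33, 4.21 and 3.70 in 6 week smoke, against 4.17, 4.64, 3.21, 3.20 and 3.06 in 6 week sham. Cox7a1, the muscle partner of Cox7a2, had 0.42, 1.52, 1.83, 2.03 and 0.59, against 1.33, 2.43, 1.32, 0.20 and 0.21. Cox6a2, the muscle partner of Cox6a1, had 0.23, 0.96, 1.37, 1.5 and 0.43, against 0.66, 1.71, 0.94, -0.57 and -0.51 in 6 week sham. The groups overlapped for each of the 3 genes, and 6 week sham m2 was high and m4 and m5 low in all of them.

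Their pooled smoke differences were 0.29 for Cox8b (interval -0.34 to 0.91), 0.30 for Cox7a1 (-0.40 to 1.00) and 0.33 for Cox6a2 (-0.31 to 0.97). Intervals of this width include both no change and a change of 1.5-fold. In 12 week sham against 6 week sham, Cox6a2, Cox7a1 and Cox8b had differences of 0.99 (interval 0.11 to 1.86), 0.78 (-0.17 to 1.73) and 0.45 (-0.40 to 1.30), with adjusted p of 0.681, 0.776 and 0.869 by limma. Over all 39 mice the lowest and highest ratios were 2.85 and 5.36 for Cox8b, 0.20 and 3.17 for Cox7a1, and -0.57 and 2.29 for Cox6a2.

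They varied with markers of the cardiac muscle of the pulmonary veins. Of 17 listed markers 16 were kept, among them Myh6 and Myl7, the atrial myosin chains, with mean ratios of 3.07 and 5.15 on arrays where both were always above the threshold, whereas Nppa, Ryr2 and Sln were above it on 29, 19 and 18 arrays. The mean ratio of the 16 correlated over the 39 arrays with Cox7a1 (Pearson's r = 0.91, Spearman's rho = 0.91), Cox6a2 (r = 0.90, rho = 0.88) and Cox8b (r = 0.73, rho = 0.72). The permutation p was 1e-05 for each, the smallest that 1e+05 permutations can give (adjusted p = 3e-05 over 18 relations). Without the 2 arrays farthest from the median, r was 0.902, 0.865 and 0.701. Within single runs it ranged from 0.93 to 0.98 for Cox7a1, 0.85 to 0.98 for Cox6a2 and 0.34 to 0.92 for Cox8b.

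The widely expressed partners Cox7a2 and Cox8a had r = -0.03 (permutation p = 0.838) and -0.04 (p = 0.791) with the same markers, although Cox8a spots were often saturated. With group and run removed r was 0.237 for Cox7a2 and 0.13 for Cox8a, against 0.943 for Cox7a1, 0.956 for Cox6a2 and 0.804 for Cox8b. Within single runs r reached up to 0.721 for Cox7a2. The fat markers also correlated with the 3 muscle isoforms (r = 0.72 for Cox7a1, 0.64 for Cox6a2 and 0.68 for Cox8b, adjusted p at most 5.14e-05), and so did the skeletal muscle markers (r = 0.45, 0.47 and 0.52, adjusted p at most 0.00536). At 6 weeks the mean cardiac marker ratio spanned 1.24 to 2.24 in smoke mice, against 0.55 to 2.11 in sham mice. At 12 weeks it spanned 2.02 to 2.25 in smoke mice, against 1.53 to 2.56 in sham mice. With the break after 6 weeks the span was 1.11 to 2.80, against 1.39 to 2.55 in the break shams, and after 12 weeks 1.499 to 2.84, against 1.54 to 2.15, so that all 4 pairs overlapped. Of the 16 kept markers, 15 were above 0 in pooled smoke against sham (median difference 0.40), against 51.7% of all probes. In 6 week smoke it was 15 (0.44), against 52.8%, and in 12 week smoke 13 (0.32), against 51%. In 12 week against 6 week sham it was 14 (0.56), against 48.6%. Of these markers 0 were called in each, against 1.22%, 0.0626%, 0.433% and 0% of all probes in that order. Their part in the differences of the muscle isoforms was not tested.

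**Figure D4:**
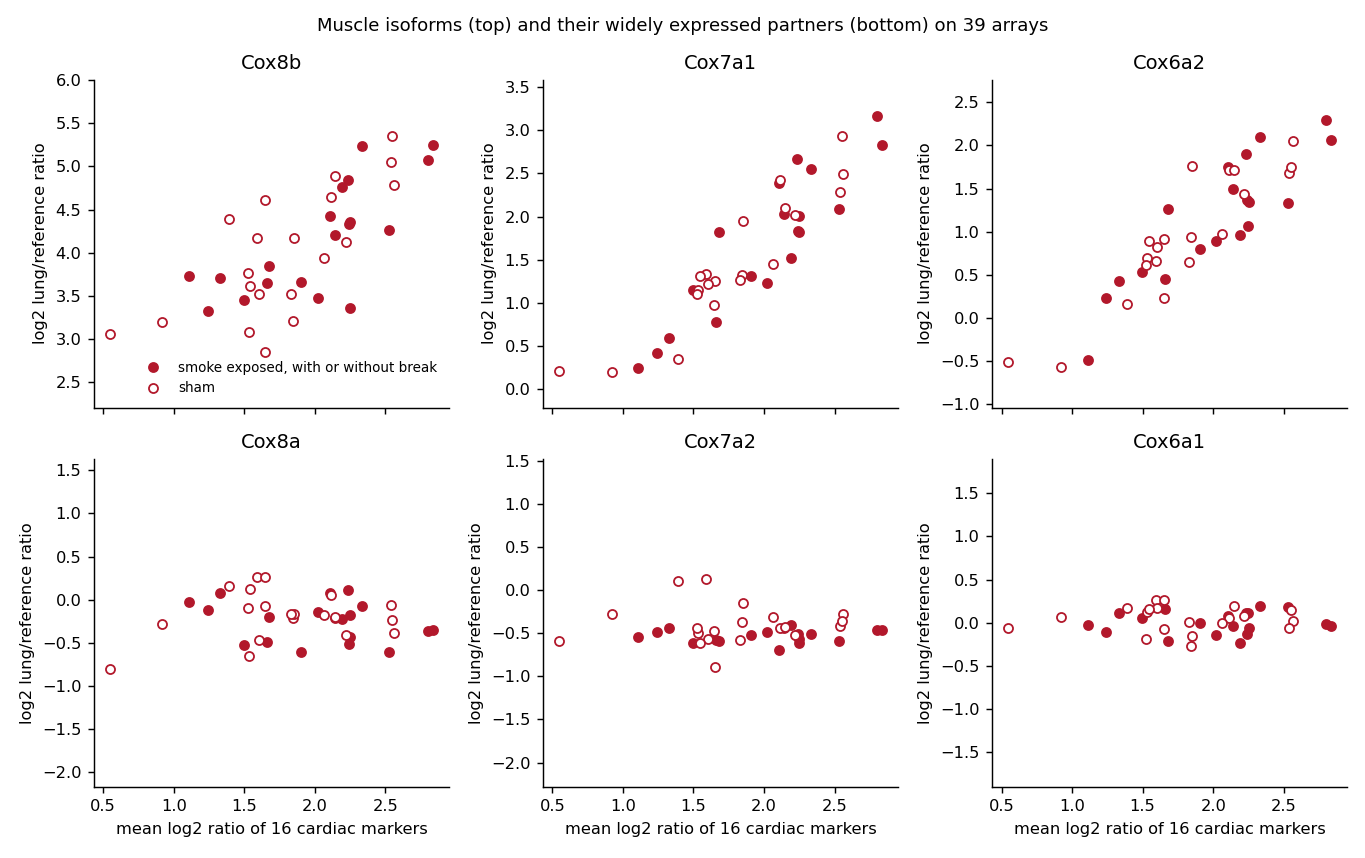
Log2 lung/reference ratio of 3 muscle isoforms (top) and their widely expressed partners (bottom) on each of 39 arrays (vertical axis) against the mean ratio of 16 cardiac muscle markers (horizontal axis), filled for smoke exposed and open for sham mice. Cox7a1, Cox6a2 and Cox8b are higher where the markers are higher (r = 0.91, 0.90 and 0.73), and Cox8a and Cox7a2 show r of -0.04 and -0.03, while Cox6a1 was at the scanner limit in both dyes on 30 arrays.

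Members also varied together between mice once group and run were removed. The median Pearson's r over all 3486 pairs of members was 0.26 (median rho 0.24), with 85.6% of pairs above 0, against 0.0019 over pairs of every 10th kept probe and 0.017 over other bright probes. Pairs of mitochondrial ribosomal proteins had a median of 0.026. Within complexes it was 0.19 for I, 0.51 for II, 0.45 for III, 0.21 for IV and 0.34 for V. These are correlations across 39 shared arrays, and the pairs are not independent. With saturated spots set to missing the median over members was 0.262. With median centring it was 0.515, and there the other bright probes had 0.307 and every 10th kept probe 0.0266.

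The closest pair was Cox6a2 with Cox7a1 (r = 0.98), then Uqcrh with Ndufb10 (0.87), Atp5b with Sdhb (0.86) and Atp5a1 with Uqcrc2 (0.82), each of the last 3 across complexes. Without saturated spots r was 0.822 for Uqcrh with Ndufb10 (27 arrays left) and 0.768 for Atp5a1 with Uqcrc2 (36 arrays left). With the mean of the cardiac markers, members had a median r of 0.42, and 34 of 84 (40.5%) exceeded 0.5, against 2.03% of all kept probes. Beyond the muscle isoforms the highest were Uqcrfs1 (0.80), Ndufs1 (0.76), Ndufa10 (0.74) and Atp5g1 (0.70). By complex the median r was 0.38 for I, 0.52 for II, 0.55 for III, 0.24 for IV and 0.42 for V. With the cardiac and skeletal marker means removed from every probe, the median pair correlation of members was 0.10, against 0.0021 for all probes, and within complexes it was 0.078, 0.30, 0.19, 0.097 and 0.19 for I to V.

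**Figure D5:**
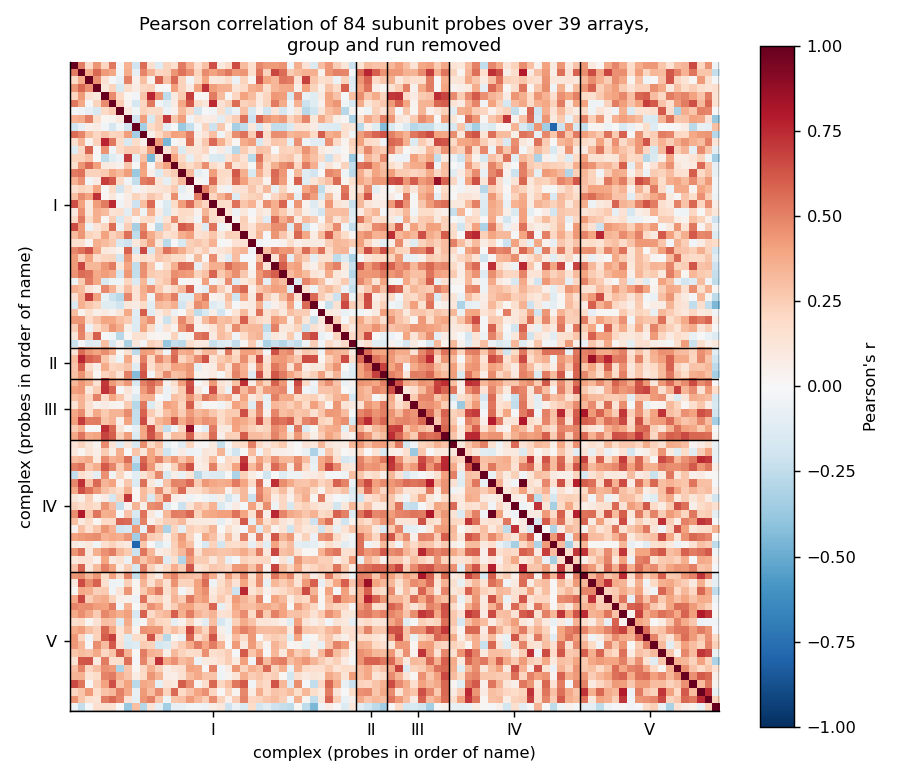
Pearson's r of each pair of the 84 member probes over 39 arrays, after removal of group and run, with probes ordered by complex and name on both axes and red for positive values. Positive values prevail within and between complexes, with medians from 0.19 (within I) to 0.51 (within II).

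Other mitochondrial genes were given alongside. In the pooled smoke comparison 0 of 23 kept assembly factors (of 30 listed), 0 of 16 citrate cycle genes (of 17), 0 of 15 electron and nucleotide carriers (of 16), 0 of 14 biogenesis regulators (of 15) and 0 of 74 mitochondrial ribosomal proteins were called, against 1.22% of all probes. Their median differences were -0.01, 0.07, 0.06, 0.03 and 0.01. The mitochondrial ribosomal protein Mrps6 was nearest with 0.30 (limma adjusted p = 0.0559), then Idh3a, a subunit of isocitrate dehydrogenase, with 0.33 (adjusted p = 0.0602). Cycs and Cyc1, cytochromes c and c1, had 0.21 and 0.13, and the regulators Nrf1, Gabpa, Tfam and Ppargc1a had 0.21, 0.13, 0.06 and -0.02. Cytochrome c1 is a subunit of complex III, but the symbol Cyc1 is outside the rule for members. The complex III values above therefore leave it out, and its mean ratio was -1.34.

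In the pooled smoke difference minus the pooled break difference, Gabpb1, a subunit of the ETS factor GABP, was called lower (-0.40, limma adjusted p = 0.0442). Against its shams Gabpb1 had -0.14 in pooled smoke (adjusted p = 0.314) and 0.31 in 12 week smoke and break. No other gene of these mitochondrial lists was called in that comparison of differences. In 12 week smoke and break the same lists, in the order given, had median differences of 0.06, 0.12, 0.09, 0.04 and 0.05. Genes above 0 were 19 of 23, 13 of 16, 14 of 15, 9 of 14 and 50 of 74, against 52.7% of all probes. Called were 0, against 0% of all probes. Of the macrophage markers 8 of 11 were kept, and all 8 had pooled smoke differences above 0 (median 0.61). Of these, Ctsd, Lpl, Itgax, Marco and Ctsk were called higher, where 1.22% of all probes were called. The macrophage list mean spanned 0.94 to 1.58 in smoke mice at 6 weeks, against 0.56 to 0.80 in their shams, and 1.10 to 1.57 at 12 weeks, against 0.64 to 0.84, without overlap at either time. The marker lists of alveolar type I and II, club, ciliated, endothelial, smooth muscle, red, B and T cells and neutrophils had 0 genes called in the pooled smoke comparison. The part of these cells in the subunit ratios was not tested.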

How the data were processed

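The authors scanned each 2-colour array and deposited per-spot intensity values for Cy5 (lung) and Cy3 (reference), quantified with ImaGene, besides log2 ratios after global LOWESS. The deposited log2 ratios served as an alternative and correlated with those used here at 0.975 to 0.996; their median per array was -0.056 to -0.0145, and the labels give their direction as lung over reference. Each array held 22575 spots, 1257 of them controls. Signals were background-corrected (normexp, offset 50), normalized within arrays by loess with control spots at weight 0, and averaged per probe (R 4.3.3, limma 3.58.1).

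A probe was kept when Cy5 exceeded the mean plus 3 SD of negative controls (5% trimmed at each end) on at least 4 arrays of 1 group, which left 84.1%. Of the gene probes, 18235 had 1 annotated symbol, 30 several and 2603 none. A model of 8 groups with 5 exposure runs as a fixed block was fitted with limma to all kept probes. The runs were inferred from the order of exposure dates in the labels, and need not match the batches of the study. Empirical Bayes p-values were adjusted by Benjamini-Hochberg over 17560 probes. The precision is limited by the number of arrays, and all 39 arrays were used. The script was tested on simulated data before use. Correlations with marker lists used 1e+05 permutations, two-sided.

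The members and lists were chosen with earlier results of these data known. Named genes were members called in any comparison and the highest and lowest member of each complex in the smoke comparisons. Tissue isoforms, core subunits and the complex IV subunits Cox4i1, Cox5a and Cox5b were named too. So were the highest and lowest ratios, the widest SDs and members under the dim filter. Others are named where they came nearest to a call, and those were chosen after their values were seen. Promoters came from RefSeq. Alternatives were other background corrections, normalizations, filters, blocks, array weights, the deposited ratios and leaving out each array. Added after seeing the data were saturated spots as missing, leaving out 2 pairs of arrays and within-run values after 12 week smoke and break.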

Additional observations from a re-analysis of the deposited data

Results flagged for a closer look

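Among 72 pairs of a quantity and a group examined (9 quantities, 8 groups), 5 had 1 array far from the rest of its group by Dixon's criterion, and chance flags about 1 in 20 groups. The complex IV median of 12 week sham m2 was -0.4122, against -0.1891 on the nearest array of its group. The complex V median of 12 week smoke m4 was -0.4906, against -0.462 on the nearest, within a group of 4 whose whole range was narrow. The complex V median of 6 week break sham m1 was 0.1415, against -0.4458 on the nearest, and 10 of the 18 complex V probes were at the scanner limit in both dyes on that array. Cox7a1 in 12 week break sham m4 was 2.098, against 1.448 on the nearest array, and Cox6a2 on the same array was 1.719, against 0.9767.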

How the results depend on the processing

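Medians near 0 took either sign across settings, and no called value was there to change sign. Leaving out 1 array at a time left the called members at 0 in all comparisons except break sham against sham, which had 0 to 2. It was 2 when 6 week sham m1 was left out, against 179 of all 17560 probes. Medians of all members were then -0.06 to 0.05 in 6 week smoke, 0.01 to 0.05 in 12 week smoke, -0.01 to 0.07 in pooled smoke, -0.03 to 0.03 after 6 week smoke and break and 0.11 to 0.19 after 12 week smoke and break.

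With scale normalization between arrays 1 member was called in pooled smoke and 1 in break sham against sham, against 246 and 179 of all 17560 probes. Among probes above the threshold on all arrays the members called were 1 and 1, against 431 and 259 of all 8758. Array weights gave 2 in break sham against sham, against 191 of all probes. Leaving out 6 week sham m1 and 6 week break sham m1 together gave 1 there, against 169 of all probes. Median centring in place of loess gave 6 week break medians of -0.11 for complex I and -0.13 for all members, duration differences of -0.133 for complex I and -0.08759 for II, a complex IV ratio of -0.26 and a median pair correlation of 0.515. The authors' log2 ratios put the complex I ratio at -0.38 and complex II at -0.73.

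With marked spots at weight 0 only 37 members were left among 8038 probes. Complex IV medians were then 0.16 in 6 week smoke and 0.20 in the 6 week break comparison, and the ratios were -0.49 for I, -0.34 for III, -0.90 for V and -0.53 for all. With saturated spots missing (79 members left, 417 values missing) the complex IV median was 0.13 in 12 week against 6 week sham and the complex IV ratio -0.49. Without 12 week smoke and break m2 and m5 the complex IV median there was -0.0127.

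Within run 1 the 6 week smoke medians were -0.27, -0.50, -0.38, -0.39 and -0.39 for I to V and -0.38 for all, and within run 3 they were 0.18 (I), 0.13 (II), 0.25 (III), 0.29 (V) and 0.22 (all). The 12 week smoke median of complex III was 0.28 in run 2 and -0.20 in run 3. After 12 week smoke and break the complex II medians were -0.102, -0.059, 0.376 and 0.47 in runs 2 to 5, complex IV had -0.0739 in run 3 and 0.40 in run 4, complex I had 0.31 in run 4, and all members had 0.00788 in run 3. The cause of these differences was not tested. Cox7a1, Cox6a2 and Cox8b were the 3 widest members in every setting tried except normexp without an offset and marked spots at weight 0, where 2 of them were.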

Other observations

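Fat markers stood apart on 6 week break sham m5, where the mean ratio of 5 kept markers was 4.36 and Ucp1, the uncoupling protein of brown fat, had 4.68, against at most 2.72 on the other 38 arrays. On the same array Cox8b had its highest value of the series, 5.36, and Cox7a1 had 2.93, with only 6 week smoke and break m5 higher (3.17). The lowest correlation among member pairs was that of Ndufa4l2 with Cox7b2 (r = -0.79), both dim probes.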
